A study of Mus musculus with 31 samples.

Results

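The regions described here are accessible-chromatin peaks of the mouse spinal cord. They were open in the classes VEC and PER of a single-cell ATAC library and much less in its other cells. These classes are taken here as vascular, though the labels do not expand their names. ATAC cuts and tags DNA where chromatin is open, so the number of cut sites in a peak measures its accessibility. Cut sites were summed over the cells of each class named by the authors and scaled to CPM (cut sites in the peak per 1000000 cut sites of the pool). A peak was taken where the pool of the classes VEC and PER reached at least 20 CPM and at least 4 times each of the pools EP (EP1, EP2 and EP3), ACNT (ACNT1 and ACNT2) and OPC. This gave 829 of 96670 peaks (0.858%), called VEC/PER peaks below. The same rule gave 1477 peaks for EP (1.53%), 614 for ACNT (0.635%) and 802 for OPC (0.83%). Since the peaks were chosen by these CPM values, the values are given as a description with no test.

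Blood vessels of the spinal cord are lined by endothelial cells, whose tight junctions form the blood-spinal cord barrier. Mural cells, which are pericytes and smooth muscle cells, wrap the endothelium and share its basement membrane, and fibroblasts lie around the larger vessels. Endothelial identity is known to rest on transcription factors of the ETS, SOX and GATA families. Endothelial cells signal to mural cells through PDGF and to each other through Notch, and carry receptors for VEGF. Regulatory elements that are open in 1 cell type often lie away from gene starts, inside or between genes.

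The single-cell ATAC library held 1084 non-neuronal cells from uninjured spinal cord of the C57BL/6 background, obtained by tissue digestion and flow cytometry. The labels do not expand the class names. There was 1 such library, with no second animal or preparation to set it against. RNA was compared in 12 Smart-seq2 libraries of ependymal cells, the ciliated lining of the central canal, also on the C57BL/6 background: uninjured, 1 dpi and 5 dpi cells of the genotypes Foxj1-tdT and Foxj1-Olig2-tdT, with 2 libraries in each of the 6 groups. The labels do not spell out dpi, taken here to mean days post injury. Both genotypes carry Foxj1-tdT, named for the ependymal gene Foxj1. The labels give neither the driver of the transgene, nor the age or sex of the mice, nor whether replicates were separate animals. The p-values below thus reflect library-to-library spread alone, whose source may be technical.

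VEC held 50 cells and PER 40, with 456548 and 942348 cut sites. Together they gave 4.34% of all cut sites, and EP2 alone gave 47.5%. The median cell had 7249.5 cut sites in VEC and 20075.5 in PER, against 46787.5 in EP2. In VEC 1 cut site made 2.19 CPM and in PER 1.06 CPM. A level of 0 allows up to 15.4 CPM in VEC and 7.46 CPM in PER, the upper limits of the exact Poisson intervals. The median percent of fragments in peaks was 55.2 in VEC and 56.4 in PER against 77.6 in EP2, and the median enrichment at transcription start sites was 7.70 and 5.64. Exact Poisson intervals, here and below, were computed on fragments, each of which gave 1.91 cut sites on average, and cover counting error only.

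The promoters of 7 genes under these peaks show what they cover, and are referred to again with the motif counts and the RNA. The sequences are the RefSeq promoter windows of GRCm38.p6, from 250 bases before to 50 bases after the start, read 5′ to 3′ on the strand of the gene. Dll4, Cldn5, Flt1 and Lyl1 had the highest VEC level among listed vascular genes whose promoter lay under a peak leaning to VEC, and Foxd1 was the listed gene of this kind leaning to PER. Egfl7 and Osmr were added after their values were seen, because they carry the motifs that the counts below turn on. Capitals mark matches, on either strand, to CAGGAA (an ETS core with its flank) and TGANTCA (AP-1).
Dll4, chr2:119325534-119325833, plus strand: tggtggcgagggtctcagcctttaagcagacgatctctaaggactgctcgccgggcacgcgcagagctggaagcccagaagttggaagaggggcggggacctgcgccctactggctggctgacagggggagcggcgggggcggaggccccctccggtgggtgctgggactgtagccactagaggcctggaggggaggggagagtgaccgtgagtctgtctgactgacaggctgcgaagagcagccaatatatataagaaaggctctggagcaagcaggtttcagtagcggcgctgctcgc
Cldn5, chr16:18776597-18776896, plus strand: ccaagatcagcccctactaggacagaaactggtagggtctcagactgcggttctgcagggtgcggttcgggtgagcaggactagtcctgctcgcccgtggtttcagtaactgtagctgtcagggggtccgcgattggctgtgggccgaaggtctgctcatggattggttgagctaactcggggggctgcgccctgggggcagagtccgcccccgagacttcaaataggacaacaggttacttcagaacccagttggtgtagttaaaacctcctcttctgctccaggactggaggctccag
Flt1, chr5:147725962-147726261, minus strand: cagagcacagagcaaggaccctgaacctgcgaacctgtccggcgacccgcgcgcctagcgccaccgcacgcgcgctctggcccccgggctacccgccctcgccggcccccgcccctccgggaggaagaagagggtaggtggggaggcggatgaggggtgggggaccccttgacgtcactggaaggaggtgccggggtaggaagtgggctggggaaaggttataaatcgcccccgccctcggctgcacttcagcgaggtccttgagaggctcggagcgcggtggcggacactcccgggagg
Lyl1, chr8:84701207-84701506, plus strand: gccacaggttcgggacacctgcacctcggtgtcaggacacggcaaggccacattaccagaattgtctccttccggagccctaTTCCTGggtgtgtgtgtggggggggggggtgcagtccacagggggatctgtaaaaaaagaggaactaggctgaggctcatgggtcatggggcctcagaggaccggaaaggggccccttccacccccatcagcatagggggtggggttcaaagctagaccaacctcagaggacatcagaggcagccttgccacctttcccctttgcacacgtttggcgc
Egfl7, chr2:26583615-26583914, plus strand: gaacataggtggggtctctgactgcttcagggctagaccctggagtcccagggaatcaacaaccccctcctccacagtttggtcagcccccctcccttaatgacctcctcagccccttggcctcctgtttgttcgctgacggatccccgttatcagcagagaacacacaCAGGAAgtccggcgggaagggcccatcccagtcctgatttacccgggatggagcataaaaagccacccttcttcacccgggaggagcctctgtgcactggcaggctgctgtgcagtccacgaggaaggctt
Foxd1, chr13:98353995-98354294, plus strand: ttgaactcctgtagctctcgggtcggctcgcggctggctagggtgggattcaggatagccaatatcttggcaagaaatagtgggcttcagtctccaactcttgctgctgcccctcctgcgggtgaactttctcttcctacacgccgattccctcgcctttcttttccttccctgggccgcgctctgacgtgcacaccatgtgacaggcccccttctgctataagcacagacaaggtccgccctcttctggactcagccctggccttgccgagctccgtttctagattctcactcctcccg
Osmr, chr15:6874264-6874563, minus strand: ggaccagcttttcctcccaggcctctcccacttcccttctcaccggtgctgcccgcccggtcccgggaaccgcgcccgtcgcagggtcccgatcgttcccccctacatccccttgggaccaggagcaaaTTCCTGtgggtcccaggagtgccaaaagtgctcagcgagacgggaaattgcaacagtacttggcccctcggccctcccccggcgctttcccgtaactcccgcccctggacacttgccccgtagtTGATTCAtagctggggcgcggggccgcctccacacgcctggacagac
In these windows, Dll4, Cldn5, Flt1 and Foxd1 held neither motif. Lyl1 held CAGGAA on the opposite strand and Egfl7 held it within the longer ETS form ACAGGAAG. Osmr held CAGGAA on the opposite strand and TGANTCA.

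The VEC/PER peaks divided into 326 that leaned to VEC (VEC at least 4 times PER), 196 that leaned to PER (PER at least 4 times VEC) and 307 shared by both. Which peaks are taken, and so the split, depends on how the pool is weighted, since PER gave about 2 times the cut sites of VEC. With VEC and PER weighted equally another set of peaks passed, in which 593 leaned to VEC and 66 to PER. The lean of a given peak stayed the same in that setting. By the mean of the cells' CPM, which changed both the set and the lean, 709 and 90 did. Among all 64771 peaks with a VEC or PER cut site, 15.1% leaned to VEC, 47.0% to PER and 37.9% to neither by the same factor, and most of these peaks rest on few cut sites. The peaks leaning to VEC had a median of 72.3 CPM in VEC (41.6 to 230.0) and 4.25 CPM in PER, with 72 of the 326 at 0 in PER. Those leaning to PER had a median of 37.1 CPM in PER (26.5 to 108) and 0 CPM in VEC, where 136 of the 196 had no cut site. Since a VEC level of 0 allows up to 15.4 CPM, a lean of 4 times is not resolved at a PER level of 37.1 CPM. Shared peaks had medians of 39.4 CPM in VEC and 29.7 CPM in PER. Over all 829 peaks the medians were 1.65 CPM in EP, 0.886 CPM in ACNT and 1.18 CPM in OPC.

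**Figure D1:**
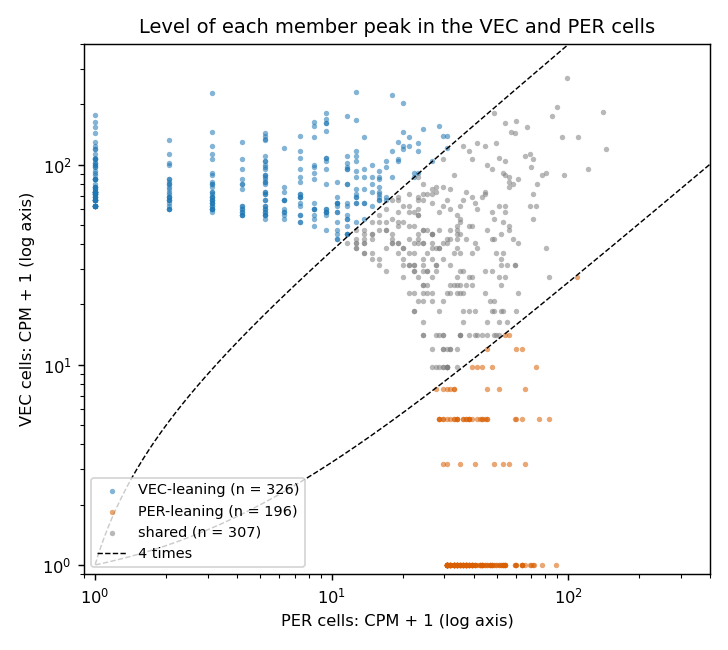
Level of each of the 829 VEC/PER peaks in PER cells (x axis, CPM + 1) and VEC cells (y axis, CPM + 1), on log axes, coloured by split. The 326 peaks leaning to VEC and the 196 leaning to PER lie on either side of the 4-times lines, and those with no cut site in 1 class lie along the edge of the plot.

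The median VEC/PER peak stood at 28.6 CPM in the pool of VEC and PER and had a cut site in 16 of the 90 cells (2 to 53). Its level was a median of 9.35 times that of the highest other pool, counting the 11 peaks with no cut site elsewhere as above the median. The highest other pool was EP for 385 peaks, OPC for 272 and ACNT for 172. A pair of VEC-leaning peaks rested almost wholly on 1 cell: chr2:52750889-52751392, with 95.7% of its VEC and PER cut sites from 1 cell, and chr19:47925733-47926240, with 93.8%. Every other VEC/PER peak drew at most 41.4% from 1 cell, and the median was 14.3%.

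The threshold of 20 CPM equals 28 cut sites. The 3 peaks taken just inside it had 28 cut sites (20.02 CPM) and the 3 just outside had 27 (19.3 CPM), so 1 cut site separated them. The 3 peaks just inside the fold limit stood at 4.02 times the highest other pool, and the 3 just outside at 3.989 to 3.997 times.

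The 8 highest VEC-leaning peaks ranged from 169 to 230.0 CPM in VEC. The highest, chr6:91718752-91721781, lies inside Slc6a6, the taurine transporter gene, and at the start of Gm44981. It had 230.0 CPM in VEC (95% interval 173 to 299) and 11.7 CPM in PER. The next, between genes and 75.6 kb from Jcad, which codes for a protein of endothelial cell junctions, had 226 CPM in VEC (170 to 294) and 2.12 CPM in PER. A peak 1.80 kb from the start of Esam, an endothelial adhesion molecule, had 221 CPM in VEC (166 to 289) and 17.0 CPM in PER at chr9:37529890-37531379. These 3 intervals overlap, so the order among them is within counting error.

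The other 5 had at most 201.5 CPM in VEC. At chr3:87982081-87983600, 11.0 kb from the start of Nes, an intermediate filament gene, VEC had 201.5 CPM and PER 19.1 CPM. A peak at the start of 2700046A07Rik, with Spink13 the nearest protein-coding start at 14.01 kb, had 179.6 CPM in VEC and 8.49 CPM in PER. At chr10:79701019-79702248, 2.11 kb from the start of Bsg (basigin, a partner of monocarboxylate transporters that is abundant in barrier endothelium), VEC had 175 CPM and PER had no cut site. EP, ACNT or OPC reached at most 13.2 CPM at that Bsg peak. The peak over the start of the Notch ligand gene Dll4, chr2:119325481-119328267, had 173 CPM in VEC (124 to 234) and 10.6 CPM in PER. The peak in the transporter gene Abcc6, chr7:46013096-46013886, had 169 CPM in VEC and 8.49 CPM in PER.

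The 8 highest PER-leaning peaks ranged from 70.0 to 108 CPM in PER. The highest was chr1:192822474-192823459, 28.3 kb from Sertad4, with 108 CPM in PER (81.2 to 141) and 26.3 CPM in VEC. The peak over the start of Mrgprf, a G protein-coupled receptor gene, lies at chr7:145299569-145301650 and had 88.1 CPM in PER (63.9 to 118) with no VEC cut site. A peak inside the gene of the matrix protein tenascin X, Tnxb, had 81.7 CPM in PER and 4.38 CPM in VEC at chr17:34684241-34686036. VEC had no cut site in 4 of these 8 peaks and up to 26.3 CPM in the others.

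Of the remaining 5, chr11:114724682-114725731 lies 1.69 kb from the start of Dnaic2, an axonemal dynein gene, and had 76.4 CPM in PER with no VEC cut site. At chr3:101280550-101281423, inside Cd2, a lymphocyte surface gene, PER had 74.3 CPM and VEC 4.38 CPM. A peak 82.0 kb from Daam1, chr12:71747902-71749049, had 72.2 CPM in PER and 8.76 CPM in VEC. The start of Foxd1, a forkhead factor gene of pericyte precursors, lies under chr13:98353903-98355222, with 71.1 CPM in PER (49.6 to 98.8) and no VEC cut site. The peak in Crocc2, a gene of the ciliary rootlet family, had 70.0 CPM in PER with no VEC cut site at chr1:93176269-93177373. The PER intervals of all 8 peaks overlap.

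Shared peaks reached the highest levels of all. At chr17:13682805-13684240, between genes and 76.3 kb from Afdn, VEC had 269 CPM (208 to 344) and PER 97.6 CPM, and 53 of the 90 cells had a cut site, while the highest other pool had 3.93 CPM. The zinc-finger genes Zic2 and Zic5, which lie side by side, each had a shared peak at the start. Over Zic2, chr14:122473956-122476093, VEC had 182 CPM and PER 139 CPM, and over Zic5, chr14:122463207-122465841, VEC had 173 CPM and PER 84.9 CPM. The Zic2 peak also covers the start of 2610035F20Rik, so it cannot be given to 1 gene. A peak inside Tns1, the focal adhesion gene tensin 1, had 193 CPM in VEC and 89.1 CPM in PER at chr1:73998047-74001890.

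Another 3 of the highest shared peaks lay between genes. They were 11.3 kb from Chit1 (136 CPM in VEC and 109 CPM in PER), 119 kb from Rpl14 (94.2 and 121 CPM) and 22.6 kb from Klf2 (136 and 93.4 CPM). Klf2 codes for a transcription factor of endothelium under flow. Of these 3, the peak near Rpl14 alone had the higher level in PER. Unlike the peak near Afdn, the other shared peaks named here had 14.2 to 25.7 CPM in another pool. The pooled VEC and PER level was 4.59 to 4.94 times that of EP near Chit1, in Tns1 and near Klf2 and 4.63 times that of ACNT at Zic5, so these lay close to the limit of 4.

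Cell by cell, the VEC/PER peaks took 2.64 to 6.02% of the cut sites of a VEC cell (median 4.19%) and 0.728 to 3.40% of those of a PER cell (median 2.40%). Of the 994 cells of the other classes, the highest reached 2.29%, in EP1, and 2 reached the lowest VEC or PER cell. Of the 90 VEC and PER cells, 17 lay at or below that highest other cell. All 50 VEC cells had more cut sites in VEC-leaning than in PER-leaning peaks, and 37 of 40 PER cells had more in PER-leaning peaks. The VEC-leaning peaks took a median of 2.79% of a VEC cell and 0.189% of a PER cell. The PER-leaning peaks took a median of 0.900% of a PER cell and 0.021% of a VEC cell, with 21 VEC cells at 0. These cells chose the peaks, so the shares describe the spread within each class.

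**Figure D2:**
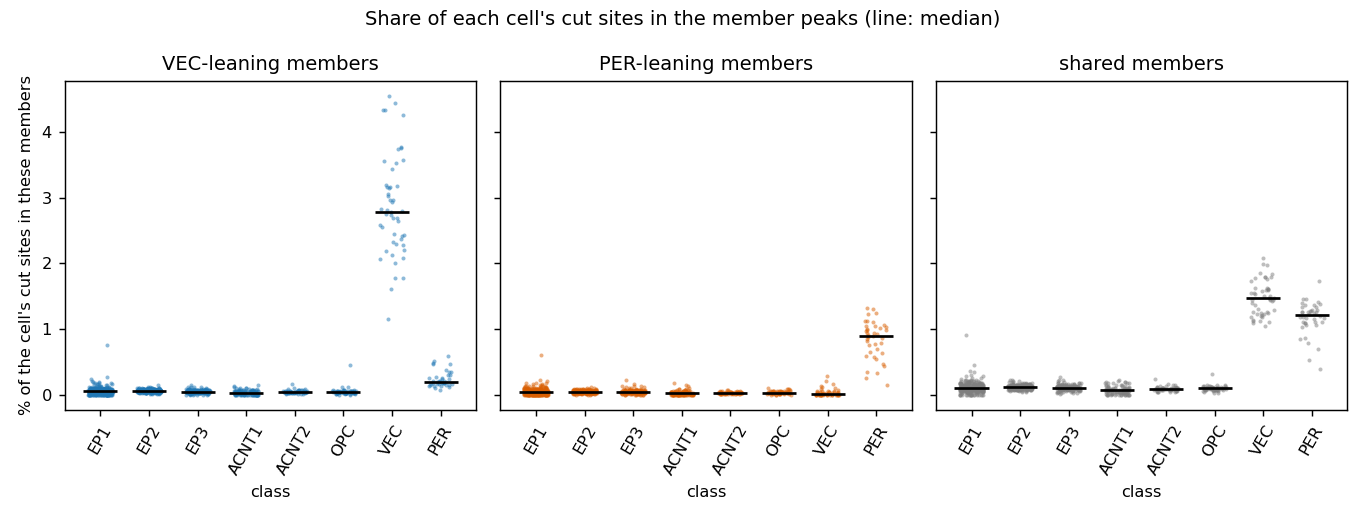
Percent of each cell's cut sites (y axis) that fell in VEC-leaning, PER-leaning and shared VEC/PER peaks, by class (x axis), with 1 point per cell and a line at the class median. VEC cells have a median of 2.79% in VEC-leaning peaks, PER cells 0.900% in PER-leaning peaks, and the other classes lie near 0 in all 3 panels.

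The class names were checked against marker lists by summing cut sites in peaks within 2 kb of the markers' starts. The 18 endothelial genes summed to 1027 CPM in VEC and to between 41.4 and 137 CPM in the other 7 classes. PER was less sharply set apart by mural markers. The 13 pericyte genes summed to 247 CPM in PER, 164 CPM in OPC and 150 CPM in ACNT2, and the 12 smooth muscle genes to 219 CPM in PER, 201 CPM in EP3 and 169 CPM in VEC. The 11 fibroblast genes summed to 359 CPM in PER against 192 CPM in the next class, ACNT2, and 76.7 CPM in VEC. The microglia and myeloid genes summed to 91.3 CPM in PER, 54.8 CPM in VEC and 31.0 to 47.7 CPM elsewhere.

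At single starts the classes differed from gene to gene. At Pdgfrb, the PDGF receptor of pericytes and fibroblasts, PER had 83.8 CPM, ACNT2 39.5 CPM and ACNT1 36.4 CPM. At Col1a2, a fibrillar collagen gene of fibroblasts, PER had 81.7 CPM, VEC no cut site and the others between 3.93 and 20.6 CPM. At Dcn, which codes for the fibroblast proteoglycan decorin, PER had 9.55 CPM and no other class more than 0.26 CPM. The pericyte genes Rgs5, Higd1b and Atp13a5 had no peak at the start. The classes are therefore called VEC and PER here, as the authors named them, with no cell type name given to PER.

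By position, 23.5% of the VEC/PER peaks lay at a gene start (within 2 kb), 45.7% elsewhere inside a gene and 30.8% between genes. Over all peaks the shares were 22.3%, 50.1% and 27.7%, close to these. The share at a gene start was 19.6% (15.5 to 24.4%, exact Clopper-Pearson) for VEC-leaning peaks, 23.5% (17.7 to 30.0%) for PER-leaning peaks and 27.7% (22.8 to 33.1%) for shared peaks, and these intervals overlap. The share was 15.2% for peaks open only in EP, 14.3% for those only in ACNT and 29.1% for those only in OPC, and no difference between these sets was tested. Where no strand was known, either end of a gene counted as a start, and with starts of known strand alone the share was 17.6% for VEC/PER peaks and 16.9% for all.

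**Figure D3:**
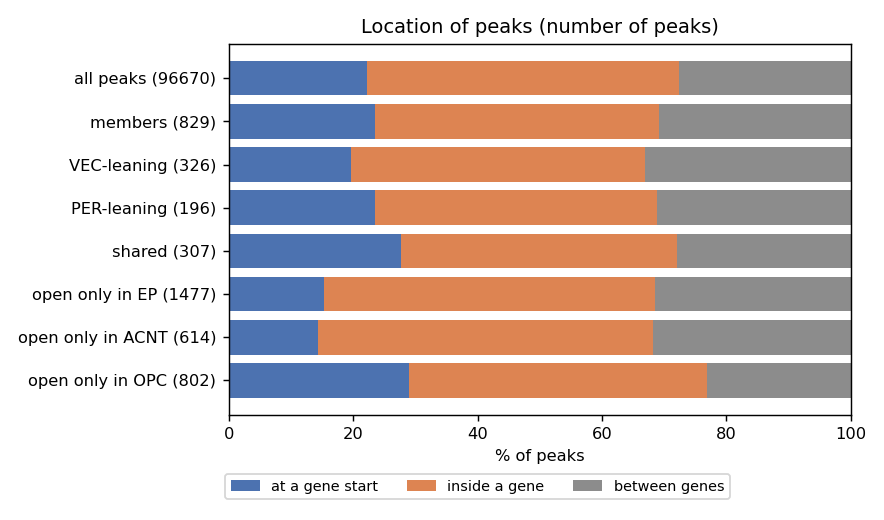
Percent of peaks (x axis) at a gene start, elsewhere inside a gene and between genes, for all peaks, the VEC/PER peaks and their 3 splits, and the peaks open only in EP, ACNT or OPC, with the number of peaks in brackets. The VEC/PER peaks, with 23.5% at a start, lie near all peaks at 22.3%.

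The median width of the VEC/PER peaks was 642 bases, against 587 bases for all peaks and 1621, 884.5 and 780.5 bases for the peaks open only in EP, ACNT and OPC. Widths were set by the authors' peak calling, in which these 90 cells gave 4.34% of the cut sites, and the part of cell number and depth in this was not tested. The median distance to the nearest protein-coding start was 22.6 kb (22.9 kb for VEC-leaning, 30.9 kb for PER-leaning and 19.7 kb for shared peaks), and 115 peaks lay over 100 kb away. Of the 829 peaks, 100 lay within 10 kb of another. Chromosome X held 4 of them among its 2380 peaks (0.168%).

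At gene starts, 133 of 21883 protein-coding genes (0.608%) had a VEC/PER peak, of which 40 were VEC-leaning, 28 PER-leaning and 65 shared. Within the gene or 10 kb of it the number was 584 (2.67%). Of 187 genes in 14 vascular lists, 15 had one at the start (8.02%) and 30 within the gene or 10 kb (16.04%). The lists were drawn up with earlier results of these data known.

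Among the 18 endothelial markers, 5 had a VEC/PER peak at the start: Cldn5, Flt1, Esam, Egfl7 and Eng. All 5 leaned to VEC. Cldn5, the main claudin of the barrier, had 147 CPM in VEC (102 to 204) and 8.49 CPM in PER at chr16:18776067-18777851. Flt1, which codes for a VEGF receptor, had 96.4 CPM in VEC (61.2 to 145) and 10.6 CPM in PER at chr5:147725249-147726301, and a second peak 84.5 kb away inside the gene, chr5:147641157-147641465, had 67.9 CPM in VEC and none in PER. Eng, a co-receptor of TGF-beta family ligands, had 59.1 CPM in VEC and 3.18 CPM in PER at its start. Tek, the angiopoietin receptor, had no peak at the start but a VEC-leaning peak inside the gene with 72.3 CPM in VEC, 13.8 CPM in PER and none in EP, ACNT or OPC.

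The other endothelial markers missed the rule in different ways. Pecam1, Tek, Emcn, Ly6c1, Icam2 and Vwf had no peak at the start at all. The start of Tie1 had 52.6 CPM in VEC and at most 0.18 CPM elsewhere, but with PER at 0 the pool of both stayed under 20 CPM. The start of the VEGF receptor gene Kdr had 85.4 CPM in VEC, yet 34.5 CPM in EP2 and 32.5 CPM in EP1. Cdh5, the cadherin of endothelial junctions, had 41.6 CPM in VEC and 4.54 to 7.48 CPM in every other class. For Cdh5, too, the pool of VEC and PER stayed under 20 CPM, with 19 and 7 cut sites.

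Barrier transport and junction genes had 1 start under a VEC/PER peak among 16, that of Itm2a, with 92.0 CPM in VEC and 14.9 CPM in PER. Inside the gene lay peaks of Lsr, a tricellular junction gene (94.2 CPM in VEC and 12.7 CPM in PER), and of Tjp1, the scaffold protein ZO-1 (59.1 and 5.31 CPM). In the Wnt/beta-catenin list, which had none at a start, Adgra2, Lef1 and Sox17 had a peak in the gene or within 10 kb. The adhesion receptor gene Adgrl4 (72.3 CPM in VEC) and Nos3, the endothelial nitric oxide synthase (67.9 CPM), had VEC-leaning peaks at the start with no PER cut site.

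Endothelial transcription factor genes had 3 starts among 25 within 2 kb of a VEC/PER peak, and 7 genes had one in the gene or within 10 kb. The starts were those of Lyl1 (94.2 CPM in VEC and 10.6 CPM in PER) and Tal1 (61.3 and 13.8 CPM), related basic helix-loop-helix genes of blood and endothelium, and of the forkhead gene Foxf2 (92.0 and 11.7 CPM). Sox17, a gene of arterial endothelium, had an internal peak with 83.2 CPM in VEC and none in PER. In Ets1, the founding ETS factor gene, a shared peak had 103 CPM in VEC and 53.1 CPM in PER, and a second peak leaned to VEC with 56.9 and 8.49 CPM. Lef1, a nuclear partner of beta-catenin, had 59.1 CPM in VEC and 7.43 CPM in PER, and the peak 3.18 kb from Klf2 was shared at 50.4 and 52.0 CPM.

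Mural transcription factor genes had 3 starts among 16, and only Foxd1 leaned to PER. Tbx3 was shared, with 164 CPM in VEC and 59.4 CPM in PER at chr5:119670044-119671252, and Foxf2, which is on both lists, leaned to VEC. Beyond the starts, a peak within 10 kb of Zic1 had 42.4 CPM in PER and none in VEC, while one in Epas1, a hypoxia-inducible factor gene, leaned to VEC with 96.4 and 7.43 CPM. The peak near Zic1 overlaps the promoter windows of A730094K22Rik and Gm40545, so it cannot be given to Zic1 alone. None of the 13 pericyte, 12 smooth muscle, 11 fibroblast or 12 arterial and venous genes had a VEC/PER peak at the start or within 10 kb, a count to set beside the 2.67% of all genes. In the basement membrane list of 12, Hspg2 (perlecan) alone had one, with 62.6 CPM in PER and 4.38 CPM in VEC.

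Of the 15 genes of PDGF and TGF-beta signalling, 5 had a VEC/PER peak. The ligand gene Pdgfb, by which endothelium is known to recruit pericytes, had a peak inside the gene with 54.8 CPM in VEC and 5.31 CPM in PER. Acvrl1, the endothelial type I receptor of the family, had one 4.99 kb from its start with 59.1 and 1.06 CPM, and the inhibitory Smad7 had one inside the gene with 52.6 and 10.6 CPM. The Notch list held Dll4 at the start and Jag2, another ligand gene, within 10 kb (61.3 CPM in VEC and 20.2 CPM in PER), 2 of 13. In the lists of other cell types, Pltp (ependymal list) and Lhfpl3 (oligodendrocyte progenitor list) had a VEC-leaning peak in or within 10 kb of the gene, and none had one at the start.

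A few genes held several VEC/PER peaks. Tns1 held 6 of its 49 peaks, with 1 leaning to VEC (98.6 CPM in VEC), 3 leaning to PER (31.8 to 41.4 CPM in PER) and 2 shared. Egfl7, a secreted factor gene of endothelium, had 3 that all leaned to VEC with no PER cut site. The peak over the start whose promoter is printed above had 70.1 CPM in VEC. The others lie upstream of the whole gene, 2.28 and 4.72 kb from its annotated edge, which is not that start, and had 118.3 CPM (chr2:26578077-26578802) and 111.7 CPM (chr2:26575981-26576361). Mir126a, the endothelial microRNA gene inside Egfl7, lies 7.34 kb from the peak at the start.

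Eml1 had 1 peak of each kind, all inside the gene or over its start: a VEC-leaning one (94.2 CPM in VEC and 6.37 CPM in PER), a shared one (17.5 and 27.6 CPM) and a PER-leaning one with 30.8 CPM in PER and no VEC cut site. Smg6 held a PER-leaning peak (62.6 CPM in PER, none in VEC) and a VEC-leaning one (74.5 and 3.18 CPM), and its shared peak lies past the gene's end, at the start of Hic1. Tgfb1 itself held a shared peak near the start (46.0 CPM in VEC and 30.8 CPM in PER). The other peaks counted for Tgfb1 came from the 10 kb flank: a VEC-leaning one (59.1 and 4.24 CPM) lies between Tgfb1 and its neighbour Ccdc97, and a PER-leaning one (4.38 and 35.02 CPM) inside Ccdc97. Anxa3 and Pear1 had 1 VEC-leaning and 2 shared peaks, and all 3 in Pxn, the focal adhesion gene paxillin, were shared. Of 10 genes tied at 3 peaks, the 7 with the highest levels are given. In Tns1, Eml1 and Smg6 the gene body thus held separate peaks leaning to each class.

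Promoter sequence was examined in the 109 RefSeq promoter windows, of 98 genes, that overlap a VEC/PER peak. Their median GC content was 58.0%, and their median ratio of observed to expected CpG was 0.361, against 0.735 in the 16416 windows under any peak and 0.384 in all 32850 windows. The windows under peaks open only in EP (0.352) and only in ACNT (0.190) were as poor in CpG or poorer, and those under peaks open only in OPC stood at 0.565. PER-leaning windows had 0.303, shared windows 0.376 and VEC-leaning windows 0.396. Low CpG content thus goes with windows under the VEC/PER, EP and ACNT peaks alike.

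Of 17 motifs searched on both strands, the ETS core CAGGAA was in 51.4% of the 109 windows, against 25.5% of windows under any peak and 30.6% of all windows. It was in 62.2% of the 37 VEC-leaning windows, 52.1% of the 48 shared and 33.3% of the 24 PER-leaning windows. Under peaks open only in EP it was in 25.8%, only in OPC in 22.6% and only in ACNT in 44.7% of 38 windows. The longer form ACAGGAAG, which contains CAGGAA, was in 10.8% of VEC-leaning windows and none of the PER-leaning windows, against 2.8% under any peak. The AP-1 motif TGANTCA was in 18.3% of the VEC/PER windows (24.3% VEC-leaning, 12.5% PER-leaning and 16.7% shared) against 4.8% under any peak and 7.8% of all.

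The GATA motif, spelled AGATAA, and the SOX motif, spelled ATTGTT, were each in 16.2% of VEC-leaning windows, against 5.7% and 5.9% under any peak, but 11.2% and 10.7% of all windows and 8.6% and 14.1% under peaks open only in EP. The exact interval of 6 of 37 windows, 6.2 to 32.0%, holds the last 4 of these shares. In PER-leaning windows GATA was in 4.2% and SOX in none. The EBF motif was in 12.8% of the VEC/PER windows against 8.1% under any peak, and the SP motif GGGCGG in 45.0% against 61.1%. The smooth muscle CArG box was in 1.8% against 1.2%. Of the 10 promoters of listed vascular genes under VEC-leaning peaks, 4 held CAGGAA (Lyl1, Itm2a, Egfl7 and Eng), so the sequences printed above for Dll4, Cldn5 and Flt1 are of the kind that lack it. A match of letters is no proof of binding, and several windows belong to the same gene.

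**Figure D4:**
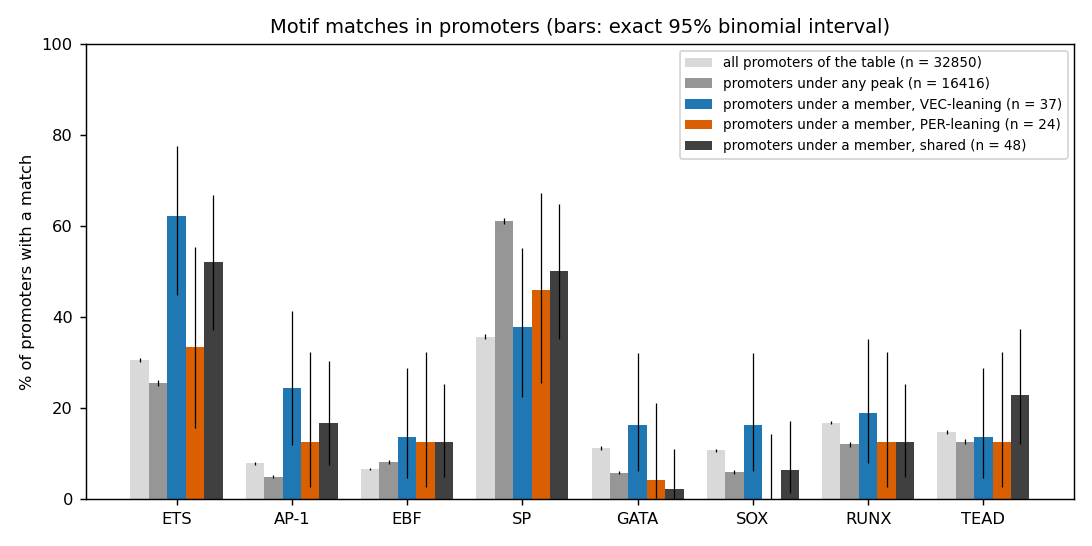
Percent of promoter windows with at least 1 match (y axis) for 8 motifs (x axis), with exact 95% binomial intervals, in all windows, windows under any peak and windows under VEC-leaning, PER-leaning and shared VEC/PER peaks. The ETS bar reaches 62.2% in VEC-leaning windows against 25.5% under any peak, and AP-1 reaches 24.3% against 4.8%.

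RNA of the genes with a VEC/PER peak at the start was read in ependymal cells, a readout the rule did not use. The 12 ependymal markers were all in the RNA table and summed to 130819 and 131766 normalised counts in the uninjured Foxj1-tdT libraries, and to between 28297 and 42969 in the injured ones. Of the 133 genes, 94 were in the table of 16301 genes, and Cldn5, Dll4, Esam, Foxd1 and Lyl1 were among those not matched. In the uninjured Foxj1-tdT libraries the 94 genes had medians of 25.7 and 29.3 normalised counts against 209 for all genes in each. Values under 10 made up 39.4% and 42.6% of them against 20.2% of all genes in each library. Normalised counts are not divided by gene length, so this compares groups of genes only roughly.

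After injury the medians of these 94 genes were 102 and 117 normalised counts at 1 dpi and 144 and 130 at 5 dpi, all above both uninjured libraries. In the limma fit, 93 of the 94 genes were tested. At 1 dpi, 27 were higher and 5 lower than in uninjured cells (adjusted p under 0.05), where 15.4% of all 15811 genes were higher and 12% lower. At 5 dpi, 25 were higher and 2 lower, where 13.8% of all genes were higher and 9.21% lower. The median log2 difference was 0.66 at 1 dpi (0.00 over all genes) and 1.49 at 5 dpi (0.04 over all genes). Both contrasts share the uninjured pair.

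The uninjured pair was far more alike than other pairs (r = 0.989 across genes, against 0.864 to 0.928). The depth behind the normalised counts is unknown, so whether the pair differed by more than sampling noise cannot be told. Entered as 1 library, it left 19 higher and 3 lower at 1 dpi, where 1189 and 557 of 15667 genes passed, and 18 higher and 0 lower at 5 dpi, where 914 and 383 passed. Higher calls outnumbered lower ones in both fits. In the uninjured libraries 39.4% and 42.6% of these genes were under 10, against 20.2% of all genes. Such genes have little room to fall, and no set matched on uninjured level was compared. The part of this low start in the excess of higher calls was not tested.

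By split, at 1 dpi 6 of 23 genes with a VEC-leaning peak were higher and 3 lower, 7 of 21 with a PER-leaning peak were higher and 1 lower, and 14 of 49 with a shared peak were higher and 1 lower. At 5 dpi the counts were 3 and 0, 7 and 2, and 15 and 0. Genes were also grouped by their mean over all 12 libraries, injured ones included, so a rise after injury itself raised that mean. Under 50 normalised counts, 2 of 33 genes were higher at 1 dpi (6.42% of all genes at that level). Between 50 and 500, 11 of 34 were higher (16.2%), and from 500 up 14 of 26 were (20.6%). At 5 dpi the counts were 1 (7.73%), 11 (15.5%) and 13 (16.2%). So nearly all higher calls came from genes with a mean of at least 50, and these groups do not match genes on their uninjured level.

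**Figure D5:**
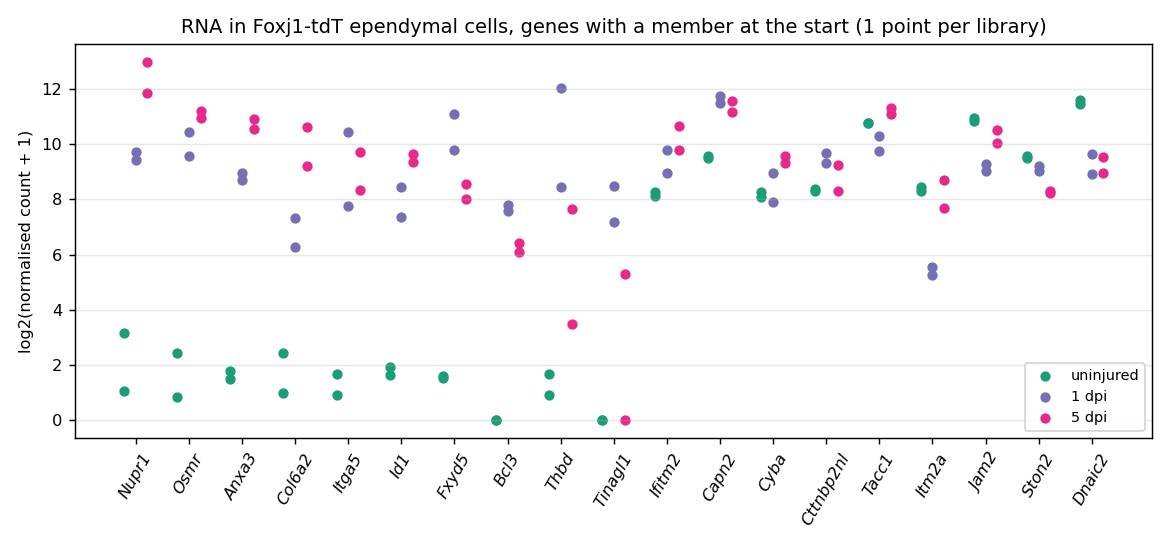
RNA as log2(normalised count + 1) (y axis) of named genes with a VEC/PER peak at the start (x axis) in the Foxj1-tdT libraries, with 1 point per library and 2 libraries each for uninjured, 1 dpi and 5 dpi. Osmr, Nupr1, Anxa3 and Itga5 have at most 8.0 normalised counts without injury and at least 216.9 after it, while Itm2a and Jam2 are lower at 1 dpi.

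Osmr, the oncostatin M receptor whose promoter is printed above, had 0.8 and 4.4 normalised counts in uninjured cells, rising to 758.4 and 1377.2 at 1 dpi and to 2344.7 and 1960.3 at 5 dpi. Its log2 difference was 8.36 ± 0.64 (SE, limma adjusted p = 4.1e-05) at 1 dpi and 9.43 ± 0.64 at 5 dpi. In Foxj1-Olig2-tdT cells it had 2.9 and 4.2 in uninjured cells, 3131.6 and 1041.8 at 1 dpi, then 1347.6 and 1250.3 at 5 dpi. The shared peak over its start had 30.7 CPM in VEC, 50.9 CPM in PER and 6.47 CPM in EP, 1.77 CPM in ACNT and 3.93 CPM in OPC, all from uninjured tissue.

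Nupr1, a stress-response gene under a PER-leaning peak, had 8.0 and 1.1 normalised counts in uninjured cells, 679.9 and 833.8 at 1 dpi, then 8057.7 and 3656.3 at 5 dpi. The 5 dpi difference was 10.29 ± 1.07 log2 units (SE, limma adjusted p = 0.000259). Anxa3, an annexin gene with a VEC-leaning peak, had 2.4 and 1.8 in uninjured cells, 413.7 and 498.6 at 1 dpi, then 1931.8 and 1500.1 at 5 dpi. Its 5 dpi difference was 9.11 ± 0.50 log2 units. For Nupr1, Anxa3 and Osmr no injured library overlapped an uninjured one in either genotype.

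Col6a2, Itga5 and Capn2, each with a PER-leaning peak within 2 kb of a start, rose at both times. Col6a2, a collagen VI chain gene, had 1.0 and 4.4 normalised counts in uninjured cells, 159.4 and 76.2 at 1 dpi, then 1565.8 and 592.8 at 5 dpi, a 5 dpi difference of 8.20 ± 0.77 log2 units. Itga5, the fibronectin receptor subunit gene, had 2.2 and 0.9, then 216.9 and 1377.3 at 1 dpi and 845.6 and 326.1 at 5 dpi (7.74 ± 0.81 log2 units at 5 dpi). Capn2, a calpain protease gene, had 726.0 and 749.7, then 2849.1 and 3418.7, then 3004.3 and 2277.3 (1.82 ± 0.18 log2 units at 5 dpi). Of these 3 genes, Itga5 had the widest gap between its 2 libraries of 1 dpi.

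Fxyd5, a regulator of the sodium pump and of adhesion, had 2.0 and 1.9 normalised counts in uninjured cells, 881.4 and 2167.8 at 1 dpi, then 370.4 and 259.1 at 5 dpi (8.87 ± 0.83 log2 units at 1 dpi). Thbd, the anticoagulant thrombomodulin, had 2.2 and 0.9, then 348.2 and 4196.5 at 1 dpi, and 198.6 and 10.2 at 5 dpi. It rose at 1 dpi by 8.94 ± 1.41 log2 units (limma adjusted p = 0.00145), and its 5 dpi difference had an adjusted p of 0.0540. Id1, an inhibitor of DNA binding that BMP signalling is known to induce, had 2.8 and 2.1, then 165.2 and 346.7, then 647.4 and 797.7 (7.71 ± 1.46 log2 units at 5 dpi, adjusted p = 0.00473). With the uninjured pair as 1 library Id1 had an adjusted p of 0.0649 at 1 dpi and 0.0347 at 5 dpi.

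Bcl3 and Tinagl1 were listed at 0 in both uninjured libraries, so no fold is given. Bcl3, a partner of NF-kappa-B, had 218.7 and 187.6 normalised counts at 1 dpi and 84.0 and 67.3 at 5 dpi, with limma adjusted p of 0.000162 and 0.000654. Tinagl1, which codes for a matricellular protein of basement membranes, had 145.3 and 352.8 at 1 dpi (adjusted p = 0.00497) and 38.0 and 0.0 at 5 dpi (adjusted p = 0.256).

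Itm2a and Jam2, both with a VEC-leaning peak within 2 kb of a start, fell at 1 dpi. Itm2a had 350.9 and 314.7 normalised counts in uninjured cells, 37.2 and 45.6 at 1 dpi, then 203.9 and 417.0 at 5 dpi, and its log2 difference at 1 dpi was -2.98 ± 0.47 (SE, limma adjusted p = 0.0014). Jam2, a junctional adhesion molecule gene, had 1948.7 and 1833.6, then 612.4 and 522.0, then 1469.5 and 1044.5, a difference of -1.74 ± 0.23 at 1 dpi (adjusted p = 0.000512) and of -0.61 at 5 dpi (adjusted p = 0.0794). In Foxj1-Olig2-tdT cells Itm2a had 247.4 and 369.2 without injury and 175.6 and 256.8 at 1 dpi, where the groups overlap. Jam2 had 3157.4 and 2908.0 without injury and 1702.9 and 2372.5 at 1 dpi in that genotype.

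Dnaic2, the axonemal dynein gene with a PER-leaning peak 1.69 kb from its start, fell at both times. It went from 2824.6 and 3071.3 normalised counts to 791.2 and 480.0 at 1 dpi and 493.5 and 741.5 at 5 dpi. Its log2 difference was -2.25 ± 0.47 at 1 dpi (limma adjusted p = 0.00683) and -2.28 ± 0.47 at 5 dpi (adjusted p = 0.0076), and with the uninjured pair as 1 library the latter had adjusted p = 0.0534. Tacc1 fell at 1 dpi, from 1740.2 and 1748.2 to 855.8 and 1260.1 (adjusted p = 0.0297, and 0.149 with the pair as 1 library). Ston2 fell at 5 dpi, from 712.4 and 755.8 to 302.3 and 315.6 (adjusted p = 0.0354, and 0.167 with the pair as 1 library). At the Dnaic2 peak PER had 76.4 CPM and EP 10.4 CPM, with 21.2 CPM in EP3, 8.11 CPM in EP2 and 4.85 CPM in EP1. The uninjured RNA of Dnaic2 stood above the upper quartile of all genes (715 and 712 normalised counts).

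The listed vascular genes with a VEC-leaning start that were in the table differed widely in level in these cells, and Itm2a, given above, was the highest of them without injury. Nos3 had 196.1 and 204.1 normalised counts in uninjured cells, near the median of all genes, with 234.9 and 420.8 at 1 dpi and 98.1 and 146.4 at 5 dpi. Eng had 26.3 and 31.4 normalised counts in uninjured cells, 0.0 and 29.9 at 1 dpi, then 92.7 and 73.9 at 5 dpi. Flt1 had 12.8 and 12.2, then 3.0 and 39.2, then 18.8 and 14.5, and in Foxj1-Olig2-tdT cells it reached 69.6 and 168.3 at 5 dpi. Egfl7 was listed at 0 in both uninjured Foxj1-tdT libraries and had 77.4 and 42.6 at 1 dpi and 23.9 and 57.2 at 5 dpi. It was not called at either time (limma adjusted p = 0.05002 and 0.0822). In Foxj1-Olig2-tdT cells it had 0.0 and 31.8 without injury and 72.2 and 0.0 at 1 dpi. Tal1 was listed at 0 in 11 of the 12 libraries.

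Markers of vascular and other cells moved in part with these groups. The 10 endothelial markers in the table summed to 471 to 484 normalised counts in the uninjured Foxj1-tdT libraries, 315 to 618 at 1 dpi and 345 to 404 at 5 dpi, and Egfl7 and Ly6a were at 0 in both uninjured libraries. The 7 of 13 pericyte markers summed to 177 to 207, then 32.7 to 117, then 208 to 453, with Rgs5 at 0 in the uninjured and 1 dpi libraries. The 9 of 12 smooth muscle markers summed to 3092 to 3129, then 1058 to 1771, then 8591 to 56684. The 9 of 11 fibroblast markers summed to 534 to 617, then 512 to 14070, then 5972 to 9675, with Pdgfra at 0 in both libraries of uninjured cells and of 1 dpi. The 5 of 12 microglia and myeloid markers summed to 1004 to 1019, then 499 to 844, then 893 to 1026, with P2ry12 at 0 throughout. Their part in the RNA differences was not tested, and in sorted pools a change in the cells captured and a change in RNA per cell cannot be told apart.

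Of the 14 higher genes at 1 dpi whose promoter window lay under a VEC/PER peak, 10 held CAGGAA and 3 held TGANTCA (Osmr, Tinagl1 and Xaf1). At 5 dpi the counts were 8 and 2 of 13. Over all 53 such genes in the RNA table they were 33 and 10. No difference in these shares was tested.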

How the data were processed

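Per the submitters' processing notes, the data were made with Cell Ranger ATAC, Cell Ranger, Bowtie2, SAMtools and deepTools on mm10, with no versions or settings. The single-cell ATAC counts are whole cut sites per peak and cell, deposited by the authors with their class names. The authors' cell table also gives each cell's enrichment at transcription start sites as a ratio and the percent of fragments in peaks. How doublets were treated is not given in the sources used here, and no barcode was repeated in the library. The bulk RNA signal is the authors' deposited normalised counts, which summed to between 12601290 and 13878102 per library. Whole reads could not be recovered from them, so their depth is unknown.

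Cut sites were summed per class and scaled to CPM with Python 3.11.15, NumPy 2.4.6, pandas 2.3.3 and SciPy 1.17.1. Peak coordinates are those deposited (mm10). Gene positions came from RefSeq tables of GRCm38.p6, in which 78.1% of 34610 genes had a start of known strand. A gene start took in 2 kb, and a gene body 10 kb on either side. A lean was a factor of 4 between VEC and PER.

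RNA values plus a pseudocount of 1 were taken to log2 and tested in limma 3.58.1 (R 4.3.3, trended empirical Bayes). All 12 libraries entered 1 fit of 6 group means, for the 15811 genes with at least 10 in at least 2 libraries, and p-values were Benjamini-Hochberg adjusted over all of them. Both procedures were tested on simulated data. The members, lists and tests were chosen with earlier results of these data known. Of 94 genes matched by symbol, 2 matched by an older one.

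Named peaks were taken from the 8 highest of each split, 1 of which is not reported here. Named genes are the 8 with the most peaks, up to 4 per list by level at the start, and in each RNA contrast the 6 highest and 6 lowest called differences whose libraries do not overlap and whose mean reached 50 in 1 group. Other genes with values were chosen after their values were seen. The labels do not say that replicate numbers pair the samples, so no replicate block entered the main fit. The alternatives changed the thresholds, the way cells were pooled, the windows, the pseudocount, the filter, the scaling, the block and the libraries. The single-cell RNA and bulk ATAC samples were not used here, and some coordinates and genes are likewise left out.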

Additional observations from a re-analysis of the deposited data

How the results depend on the processing

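The number and split of the peaks followed the rule closely. A level of 40 CPM kept 189 peaks (63 leaning to VEC, 26 to PER and 100 shared, with 29.6% at a start, 35.4% inside genes and 34.9% between). A fold of 2 gave 1776 (392 to PER and 926 shared, with 36.1%, 40.2% and 23.6%), and a fold of 8 gave 470 (98 to PER and 147 shared). The set of peaks taken also changed with how cells were weighted. Of those taken by the mean of the cells' CPM, 709 leaned to VEC and 90 to PER. Of those taken with VEC and PER weighted equally, 593 and 66 did. With binarised cells 20.4% lay at a start. A factor of 2 between VEC and PER left 163 shared. A window of 1 kb put 17.7% at a start and 49.3% inside genes, and one of 5 kb put 35.8%, 37.5% and 26.7% at a start, inside and between. A flank of 50 kb gave 1419 genes. Across the 9 alternatives to the rule, 80 peaks were kept in all.

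Counts changed less with at least 5 VEC or PER cells (827), without the deepest VEC and PER cells (911), and, chosen after seeing the data, with each EP and ACNT class as its own pool (731). By intervals that do not overlap, also after seeing the data for fragments, 401 leaned to VEC, 209 to PER and 219 were shared on cut sites, and 346, 162 and 321 on fragments.

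In the RNA, lower calls moved to 3 at 1 dpi and 0 at 5 dpi with the uninjured pair as 1 library, and to 4 at 5 dpi with quantile normalization. Leaving out 1 library gave 19 to 30 higher and 2 to 7 lower at 1 dpi, and 17 to 29 higher and 0 to 4 lower at 5 dpi. The lowest higher counts came without either uninjured Foxj1-tdT library. With a replicate block, 26 were higher and 5 lower at 1 dpi and 24 and 2 at 5 dpi. Same-numbered libraries did not deviate together (correlations -0.0296 to 0.0222 over 15 pairs of groups). The labels do not say whether the numbers pair the samples, and these correlations cannot exclude it. Of 24 named calls, 17 were lost in none of 18 alternatives and 0 changed sign. The other 7 were lost in some, with adjusted p (limma) up to 0.169 for Cttnbp2nl, 0.231 for Ifitm2 and 0.161 for Tacc1 at 1 dpi, 0.215 for Cyba and 0.178 for Ston2 at 5 dpi, and 0.0542 and 0.0573 for Dnaic2. The cause was not tested. The 90 cells of 1 library limit every level, and intervals cover counting error only.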
